A study of Mus musculus with 21 samples.

Results

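The corepressor genes described here are 9 rows of the QuantSeq table, *Ncor1*, *Tbl1x*, *Tbl1xr1*, *Gps2*, *Hdac3*, *Sin3a*, *Sin3b*, *Hdac1* and *Hdac2*, chosen by symbol out of 55421 genes, together with the ChIP-seq peaks assigned to them. All 9 were found, and all 9 passed the filter on low values (a mean above 1 TPM over the libraries) that kept 11554 genes. The cells were a single *Ebf1*-deficient lymphoid progenitor (LP) line of C57BL6/J origin, grown on OP9 stromal cells with SCF, IL-7 and Flt3L, without Notch stimulation. Every library came from cells carrying Cas9, sorted a few days after transduction for a virus that encoded sgRNA. The target was luciferase (sgCont, the control), *Lmo2* (sgLmo2), *Zbtb1* (sgZbtb1), *Cbfa2t2* (sgCbfa2t2) or *Cbfa2t3* (sgCbfa2t3). By the study's methods 2 sgRNA vectors were pooled per target. Each condition had 3 libraries, which the study's methods call biologically independent. In these bulk libraries fewer cells of a type and less RNA per cell cannot be told apart. ChIP-seq for Zbtb1 and for Cbfa2t3 was done in the same line with no sgRNA, in 2 replicates that gave 1 deposited peak list per factor.

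Cbfa2t2 and Cbfa2t3 belong to the ETO family of corepressors, which do not recognise a DNA sequence of their own but are brought to genes by DNA-bound factors and recruit histone deacetylase complexes. The NCoR complex is built on NCoR1 and holds the deacetylase Hdac3 with the WD40-repeat subunits Tbl1x and Tbl1xr1 and the small subunit Gps2. The Sin3 complexes are built on Sin3a or Sin3b and hold the paired deacetylases Hdac1 and Hdac2, which are also shared with the NuRD and CoREST complexes.

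Of the 9 genes, 4 were the nearest gene of a ChIP-seq peak, and the stretches below are shown because they are where Zbtb1 or Cbfa2t3 was found at these genes. They were read from the RefSeq genome of mouse build GRCm38 (mm10), forward strand, and hold no annotated exon. Capitals mark the motifs searched on both strands. These were the Runx core letters TGTGGT, the E-box letters CAGCTG and the E-box variant CAGATG, the ETS letters GGAAGT, the Gata-family letters AGATAA, and the repeat unit TGGTGGT, of which adjoining copies overlap. The stretch 5′ of the *Tbl1xr1* start site held none of them. The first pair are the exon-free parts of the regions of *Tbl1xr1* that lay under a peak of both factors. At the start site, 260 further bases of the shared region are annotated as exon and are not printed. The next are parts of the Zbtb1 peak at a *Sin3a* start site, the Zbtb1 peak in intron 13 of *Ncor1* and the Zbtb1 peak farthest from *Tbl1xr1*.
*Tbl1xr1*, 5′ of the start site, chr3:22076143-22076252: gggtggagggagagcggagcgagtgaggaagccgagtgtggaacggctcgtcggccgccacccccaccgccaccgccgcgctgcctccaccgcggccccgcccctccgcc
*Tbl1xr1*, 84.8 kb upstream, chr3:21991764-21992023: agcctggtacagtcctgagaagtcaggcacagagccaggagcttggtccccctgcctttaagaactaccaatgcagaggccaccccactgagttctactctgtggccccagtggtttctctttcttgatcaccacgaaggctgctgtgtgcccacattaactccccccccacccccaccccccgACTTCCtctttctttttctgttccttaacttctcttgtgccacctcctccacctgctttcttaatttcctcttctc
*Sin3a*, first intron, chr9:57076631-57076822: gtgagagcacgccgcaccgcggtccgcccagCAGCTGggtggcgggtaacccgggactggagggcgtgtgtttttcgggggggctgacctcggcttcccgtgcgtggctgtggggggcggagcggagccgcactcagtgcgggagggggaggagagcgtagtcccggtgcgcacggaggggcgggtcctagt
*Ncor1*, intron 13, chr11:62387658-62387857: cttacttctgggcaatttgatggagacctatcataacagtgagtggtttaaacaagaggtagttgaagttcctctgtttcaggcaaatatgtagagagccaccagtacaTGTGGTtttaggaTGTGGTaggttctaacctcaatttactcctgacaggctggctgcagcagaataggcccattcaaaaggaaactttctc
*Tbl1xr1*, 332.8 kb upstream, chr3:21743713-21743912: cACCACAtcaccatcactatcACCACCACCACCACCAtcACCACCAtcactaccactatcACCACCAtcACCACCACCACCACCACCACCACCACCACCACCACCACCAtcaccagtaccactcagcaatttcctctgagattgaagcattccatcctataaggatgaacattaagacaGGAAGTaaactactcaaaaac

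None of the 9 corepressor mRNAs passed the test between any sgRNA and sgCont. With limma and Benjamini-Hochberg adjustment over all 11554 genes, 0 of 9 passed an adjusted p of 0.05 in sgLmo2, sgZbtb1, sgCbfa2t2 or sgCbfa2t3, where 0.0173%, 4.79%, 0.147% and 0.537% of all genes did. At an unadjusted p under 0.05, 2 of the 36 comparisons passed, both for *Hdac1*, where 5.65%, 17.6%, 9.56% and 10.6% of all genes did in sgLmo2, sgZbtb1, sgCbfa2t2 and sgCbfa2t3. On recovered reads edgeR and DESeq2 also called 0 of 9 in each. Of all 11554 genes, in the same order, edgeR called 2, 569, 17 and 58, and DESeq2 3, 509, 16 and 53. The 95% intervals of all 36 fold changes stayed within 2-fold, and those of the 8 genes other than *Hdac3* reached past 1.5-fold, at the upper end, in 2 cases (1.51-fold for *Hdac1* in sgCbfa2t2 and for *Gps2* in sgCbfa2t3). For these 8 genes a change of 1.20- to 1.40-fold would have passed in sgZbtb1 and one of 1.32- to 1.68-fold in sgLmo2, so smaller changes would not have passed.

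The libraries held 1705416 to 2095447 recovered reads, and a floor of 3 reads came to 1.43 to 1.76 TPM. The TPM of these files gives 3′ tags relative to the library total and was not divided by gene length, so 1 transcript gives about 1 tag whatever its length. The study reports immunoblots in which Lmo2, Zbtb1 and Cbfa2t3 protein was lost from cells given the matching sgRNA. Cbfa2t2 is not named among the blotted proteins. The 3′ tags of the targeted genes were not mapped against the sgRNA cuts. Their levels below therefore do not check the cutting. *Lmo2* read 8.48, 24.4 and 15.9 TPM in the libraries labelled sgLmo2 against 23.2, 16.2 and 15.8 in sgCont. *Zbtb1* rose from 61.7 ± 5.51 to 106 ± 9.91 TPM (SD, n = 3) under sgZbtb1 and *Cbfa2t3* from 190.2 ± 18.7 to 349.8 ± 12.9 TPM under sgCbfa2t3 (limma adjusted p = 0.00102 and 1.67e-07), and *Cbfa2t2* read 21.9 ± 4.85 against 11.8 ± 0.698 TPM under sgCbfa2t2 (adjusted p = 0.412). All 7 lymphoid progenitor markers passed the filter, with summed levels of 931 to 1134 TPM. Of the 11 stromal markers 1 passed, the sum was 1.96 to 6.15 TPM in sgZbtb1 and 4.63 to 13.7 TPM in the other 12 libraries, and *Dcn*, *Col3a1*, *Postn* and *Lum* were listed at 0. B-lineage, myeloid and T-lineage markers passed in 2 of 6, 2 of 5 and 2 of 6 cases, and of these lists *Cd79a*, *Elane* and *Ptcra* were listed at 0 in all 15 libraries, while *Pax5*, *Mpo*, *Itgam* and *Lck* reached 18.1, 20.2, 14.5 and 95.9 TPM. The B-lineage sum was 5.79 to 9.38 TPM in sgCont, 9.31 to 21.0 in sgLmo2, 0.558 to 7.86 in sgZbtb1, 4.26 to 6.76 in sgCbfa2t2 and 2.22 to 5.14 in sgCbfa2t3. The myeloid sum was 15.05 to 17.0 TPM in sgCont, 3.83 to 11.3 in sgLmo2, 8.61 to 22.9 in sgZbtb1, 11.1 to 30.3 in sgCbfa2t2 and 17.7 to 21.4 in sgCbfa2t3. The T-lineage sum, nearly all *Lck*, was 40.3 to 56.4 TPM in sgZbtb1 and 70.9 to 104 TPM in the other 12 libraries. The part of these sums in the values below was not tested.

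*Ncor1*, which encodes the scaffold of the NCoR complex, had the highest level of the 9, a mean of 609 TPM over the 15 libraries that placed it 181st of 11554 genes. It read 581, 647 and 689 TPM in sgCont and 629, 604 and 597 TPM in sgLmo2. In sgZbtb1 it read 588, 623 and 542 TPM, in sgCbfa2t2 618, 547 and 618 TPM, and in sgCbfa2t3 661, 606 and 583 TPM. The mean was highest in sgCont, but the libraries of all 5 conditions overlapped. The log2 fold changes against sgCont ran from -0.13 (95% interval -0.29 to 0.04, sgZbtb1) to -0.05 (-0.21 to 0.11, sgCbfa2t3), with adjusted p of 0.444 and 0.882. The replicate SD of 40.4 TPM was 2.24 times what read counting alone gives. *Ncor1* made up 37.5% to 44.7% of the summed TPM of the 9 genes in every library, and that sum itself lay between 1424 and 1612 TPM. The share was 42.0% ± 2.42 in sgCont and lower in every library of sgZbtb1 (38.6% ± 0.61) and sgCbfa2t2 (39.0% ± 1.23; SD, n = 3, two-sided exact permutation p = 0.1 each, the smallest it can give). The 3′ end of *Ncor1* is covered on the opposite strand by *Ttc19*, itself at 16.7 TPM, and the strand setting of the counting is not given in the sources used here.

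*Hdac3*, the catalytic subunit of the NCoR complex, had the lowest level, 25.7 TPM over 15 libraries, near the middle of all genes fitted. It read 15.1, 25.5 and 26.4 TPM in sgCont, from 26 to 45 reads. In sgCbfa2t2 it read 33.5, 26.2 and 29.9 TPM, and the library at 26.2 TPM lay below the highest sgCont library. The log2 fold change there was 0.44, with a 95% interval of -0.09 to 0.97 and an adjusted p of 0.640, and it was 0.19 without sgCont replicate 1 and up to 0.58 without sgCont replicate 3. In sgLmo2, sgZbtb1 and sgCbfa2t3 the libraries spread from 17.7 to 34.7 TPM, and the log2 fold changes were 0.20, 0.09 and 0.25. The direction turned without sgCont replicate 1, the lowest of the 15 libraries (-0.05 in sgLmo2 and -0.15 in sgZbtb1), and without replicate 2 of sgLmo2 (-0.03) or of sgZbtb1 (-0.10). In sgCbfa2t3 the log2 fold change was 0.00752 without sgCont replicate 1. *Hdac3* was the least precisely measured of the 9 genes, with a replicate SD of 26.1% of its mean.

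*Tbl1x* and *Tbl1xr1* encode the WD40-repeat subunits that exchange corepressors for coactivators, and they were present at similar levels, 137 and 142 TPM over 15 libraries. *Tbl1x* read 129, 127 and 130.2 TPM in sgCont, a tight group with an SD of 1.42 TPM where the SD within conditions, pooled over all 5, was 11.7 TPM. It read 135, 135 and 145 TPM in sgCbfa2t2 and 146, 137 and 156 TPM in sgCbfa2t3, all above the sgCont libraries. The log2 fold changes were 0.10 (95% interval -0.14 to 0.34, adjusted p = 0.864) and 0.18 (-0.06 to 0.42, adjusted p = 0.636). The sgLmo2 libraries (136, 137 and 118 TPM) and the sgZbtb1 libraries (145, 161 and 119 TPM) reached both above and below sgCont.

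*Tbl1xr1* read 166, 151 and 118 TPM in sgCont. Its values were 149, 145 and 139.7 TPM in sgLmo2, 151, 142 and 129 TPM in sgZbtb1, 150.1, 126 and 133 TPM in sgCbfa2t2 and 169, 138 and 123 TPM in sgCbfa2t3. All 12 libraries but that of sgCbfa2t3 replicate 1 lay within the range of sgCont. The log2 fold changes were 0.01, -0.03, -0.08 and -0.01, with 95% intervals that reached no lower than -0.33 and no higher than 0.26. *Tbl1x* made up 43.7% to 55.9% of the sum of the pair, and its share in each sgRNA overlapped that in sgCont.

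*Gps2*, a subunit that binds NCoR and Tbl1x and restrains signalling in the cytoplasm, read 66.2, 82.8 and 59.2 TPM in sgCont and 84.7, 82.8 and 84.8 TPM in sgCbfa2t3. The sgCbfa2t3 libraries lay above those of sgCont, though the nearest pair both rounded to 82.8 TPM. The log2 fold change was 0.29 (95% interval -0.02 to 0.59, adjusted p = 0.513). It was 0.27 in sgZbtb1 (97.8, 82.7 and 70.2 TPM) and 0.26 in sgCbfa2t2 (102, 71.6 and 77.3 TPM), where the libraries overlapped sgCont, and 0.05 in sgLmo2 (67.3, 79.7 and 67.4 TPM). With single libraries left out, the log2 fold change of *Gps2* ran from 0.15 (without sgZbtb1 replicate 1) to 0.40 in sgZbtb1, from 0.11 (without sgCbfa2t2 replicate 1) to 0.39 in sgCbfa2t2 and from 0.18 (without sgCont replicate 3) to 0.42 in sgCbfa2t3, with each highest value without sgCont replicate 2.

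**Figure D1:**
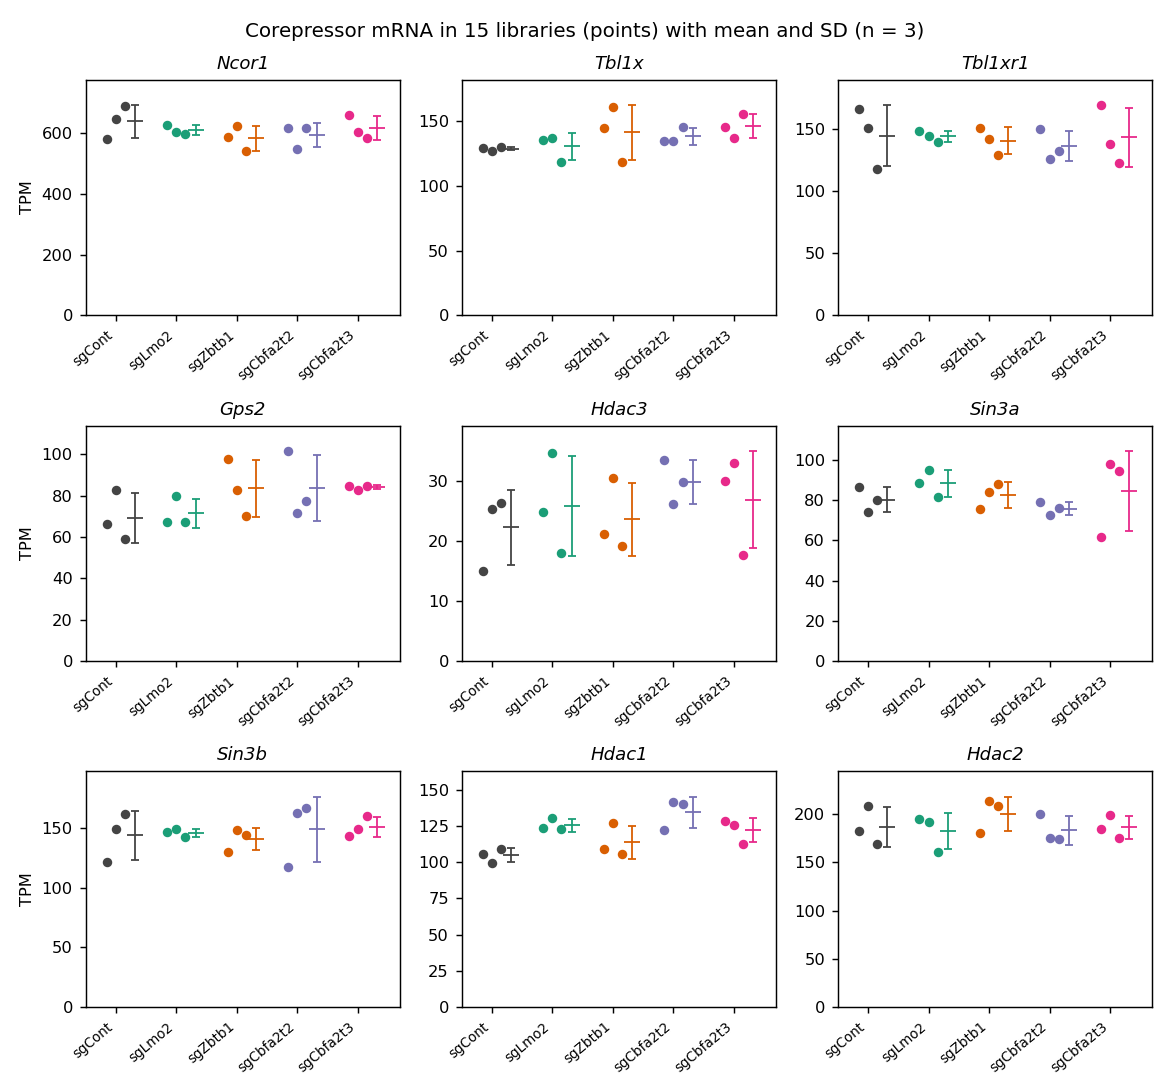
TPM (3′ tags relative to the library total, linear axis from 0) of the 9 corepressor genes in each of the 15 libraries, with the mean and SD of the 3 libraries of each condition beside the points. Hdac1 in sgLmo2, sgCbfa2t2 and sgCbfa2t3, Tbl1x in sgCbfa2t2 and sgCbfa2t3 and Gps2 in sgCbfa2t3 lie wholly above sgCont, and all other groups overlap it.

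*Sin3a* and *Sin3b* encode alternative scaffolds of the Sin3 complexes. *Sin3b* was the more abundant, at 146 against 82.2 TPM over 15 libraries, and *Sin3a* gave 30.1% to 41.6% of their sum in every library. *Sin3a* read 86.5, 74.1 and 79.7 TPM in sgCont, 88.2, 94.8 and 81.6 TPM in sgLmo2 and 75.4, 83.7 and 87.9 TPM in sgZbtb1. It read 78.8, 72.5 and 75.8 TPM in sgCbfa2t2 and 61.7, 97.6 and 94.2 TPM in sgCbfa2t3, so that sgCbfa2t3 held both the lowest and the highest library of the 15. The log2 fold changes of *Sin3a* lay between -0.08 and 0.14.

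*Sin3b* read 121, 149 and 161 TPM in sgCont, 146, 149 and 142 TPM in sgLmo2, 130.2, 148 and 144 TPM in sgZbtb1 and 143, 149 and 160.1 TPM in sgCbfa2t3. Its log2 fold changes against sgCont were 0.03, -0.02, 0.04 and 0.08 in sgLmo2, sgZbtb1, sgCbfa2t2 and sgCbfa2t3. Its libraries were as far apart within sgCbfa2t2 (118, 163 and 167 TPM) as over all 15. The smallest adjusted p of either Sin3 gene against sgCont was that of *Sin3b* in sgCbfa2t3, at 0.877.

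*Hdac1* and *Hdac2* encode closely related class I deacetylases that work as a pair in the Sin3, NuRD and CoREST complexes. *Hdac1* read 106, 99.6 and 109 TPM in sgCont, and all 12 libraries of the gene-targeting sgRNAs but those of sgZbtb1 replicates 1 and 3 lay above the highest of these. It read 123, 131 and 123 TPM in sgLmo2 and 109, 127 and 106 TPM in sgZbtb1. It read 122, 141 and 140.1 TPM in sgCbfa2t2 and 128, 126 and 112 TPM in sgCbfa2t3. The groups of sgLmo2, sgCbfa2t2 and sgCbfa2t3 did not overlap sgCont, and that of sgZbtb1 did.

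The largest of these differences was that of *Hdac1* in sgCbfa2t2, a log2 fold change of 0.35 (95% interval 0.11 to 0.60), with an unadjusted p of 0.00527 and an adjusted p of 0.303 by limma. In sgLmo2, sgCbfa2t3 and sgZbtb1 the log2 fold changes were 0.26, 0.22 and 0.11, with adjusted p of 0.864, 0.542 and 0.687. A two-sided exact permutation test of 3 against 3 libraries gave p = 0.1 for each of the non-overlapping groups, the smallest it can give. With all 12 libraries together the log2 fold change against sgCont was 0.24 (95% interval 0.04 to 0.43, higher in 10 of 12 libraries than in any sgCont library). The exact permutation p over 455 arrangements was 0.0154 before any correction for the 9 genes, and the adjusted p by limma over all genes was 0.307, where 0.615% of genes passed. The replicate SD of *Hdac1*, 8.49 TPM, was close to the 8.00 TPM that read counting alone gives.

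*Hdac2* was the more abundant of the pair. It read 182, 209 and 169 TPM in sgCont, and 195, 192 and 161 TPM in sgLmo2. It read 180.4, 213 and 208 TPM in sgZbtb1, 200.1, 176 and 174 TPM in sgCbfa2t2 and 184, 199 and 176 TPM in sgCbfa2t3. The groups overlapped, and the log2 fold changes ran from -0.03 to 0.10. The share of *Hdac1* in the sum of the pair was 36.1% ± 3.53 in sgCont and 42.3% ± 3.89 in sgCbfa2t2 (SD, n = 3), which overlapped (two-sided exact permutation p = 0.2).

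Counted over the 9 genes, the 3 libraries of a condition lay wholly above the 3 sgCont libraries for 1 gene under sgLmo2, 0 under sgZbtb1, 2 under sgCbfa2t2 and 3 under sgCbfa2t3. Over all genes this held for 5.62%, 10.1%, 6.88% and 6.7%. The genes were *Hdac1* in all of those 3 conditions, *Tbl1x* in sgCbfa2t2 and sgCbfa2t3, and *Gps2* in sgCbfa2t3. No gene lay wholly below sgCont, against 4.97%, 12.8%, 6.85% and 9.06% of all genes. The 4 comparisons share the same 3 sgCont libraries, so a low sgCont value enters all of them. The median log2 fold change of the 9 genes was 0.03, 0.09, 0.04 and 0.08 in sgLmo2, sgZbtb1, sgCbfa2t2 and sgCbfa2t3, beside 0.01, -0.03, 0.00486 and -0.01 over all genes.

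**Figure D2:**
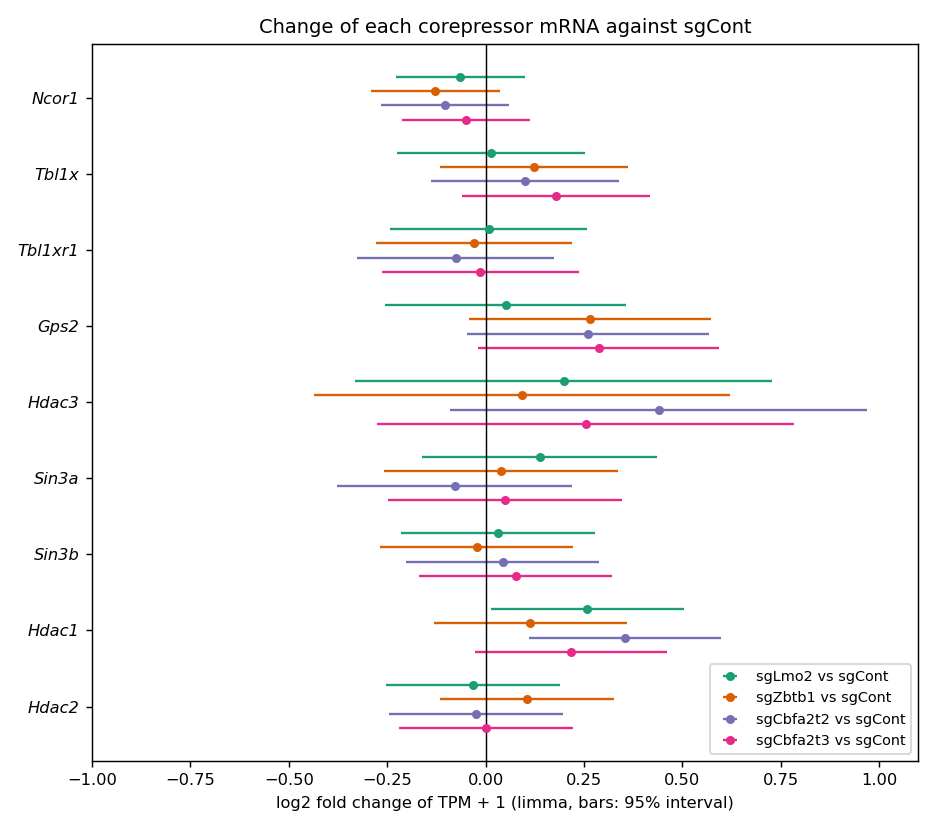
Log2 fold change of TPM + 1 against sgCont (points) with its 95% interval from limma (bars) for the 9 genes and 4 sgRNAs, on a linear axis. The intervals of Hdac1 in sgLmo2 and sgCbfa2t2 exclude 0 before adjustment, and those of Hdac3 are the widest.

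Between the gene-targeting sgRNAs, too, no difference in the 9 genes passed the test. In the 54 comparisons of 9 genes over 6 pairs of sgRNAs, 0 passed with limma, and 0 had an unadjusted p under 0.05, where 6.20% to 17.5% of all genes did over the 6 pairs. The nearest to the threshold was *Hdac1* between sgZbtb1 and sgCbfa2t2, with a log2 difference of -0.24 (95% interval -0.49 to 0.00453), an unadjusted p of 0.0543 and an adjusted p of 0.409 by limma, and a two-sided exact permutation p of 0.2. Of all genes, 5.06% passed between sgLmo2 and sgZbtb1, 0.234% between sgLmo2 and sgCbfa2t2, 0.736% between sgLmo2 and sgCbfa2t3, 2.27% between sgZbtb1 and sgCbfa2t2, 1.13% between sgZbtb1 and sgCbfa2t3 and 0.0779% between sgCbfa2t2 and sgCbfa2t3. For the 9 genes, edgeR and DESeq2 called 0 of the 54. Over the same pairs in the same order, edgeR called 617, 28, 85, 291, 127 and 11 of all 11554 genes. DESeq2 called 566, 24, 79, 265, 129 and 11. In the moderated F test over 5 conditions 0 of 9 passed, where 4.54% of all genes did, and *Hdac1* had the smallest p (0.0532, adjusted p = 0.307). When the conditions were ordered by mean level, no neighbours in the order passed the test for any of the 9 genes (smallest adjusted p 0.678). The highest and lowest conditions stood 1.06-fold apart for *Tbl1xr1*, 1.28-fold for *Hdac1* and 1.34-fold for *Hdac3*.

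Across the 15 libraries the 36 pairwise Pearson correlations of log2(TPM + 1) between the 9 genes ran from -0.69 (*Tbl1xr1* with *Sin3b*) to 0.58 (*Hdac1* with *Hdac3*). The 10 pairs among the 5 NCoR complex genes ran from -0.03 (*Ncor1* with *Gps2*) to 0.50 (*Tbl1x* with *Gps2*). Near 0 were also *Hdac3* with *Tbl1xr1* (0.03) and *Tbl1x* with *Tbl1xr1* (0.04). These pairs were not compared with pairs of other genes. The deacetylases *Hdac1* and *Hdac2* stood at -0.20, and the alternative Sin3 scaffolds *Sin3a* and *Sin3b* at 0.03. Of 8156 genes with a mean of at least 10 TPM, those most like *Hdac1* were *Atp5e* (r = 0.90), *Ndufa13* (0.81) and *Stt3a* (0.79). These correlations describe 15 libraries scaled to 1 total, and the likeness was picked from the whole table.

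Zbtb1 peaks had 3 of the 9 genes as their nearest gene (*Ncor1*, *Sin3a* and *Tbl1xr1*), and Cbfa2t3 peaks 2 of 9 (*Tbl1x* and *Tbl1xr1*). Over all fitted genes this held for 26.8% and 20.5%, so the 9 genes were near the background in both lists. Peaks were taken as deposited, with the nearest gene, distance and score given by HOMER, and with 1 list per factor they have no replicate error. Each list assigned 7 peaks to the 9 genes, of 5898 and 6077 in all. In the GENCODE annotation *Tbl1xr1* spans chr3:22076652-22216594, *Sin3a* chr9:57072040-57128366 and *Tbl1x* chrX:77511013-77662983 on the forward strand, and *Ncor1* chr11:62316426-62458541 on the reverse strand.

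The highest of these peaks was that of Zbtb1 at *Sin3a* (chr9:57076452-57076822), with a score of 135 where the median of the list was 28 and 94.9% of peaks were no higher. *Sin3a* has several annotated starts, and the centre lay 261 bp past the one HOMER used and 4.6 kb inside the GENCODE span. The first intron of the transcript from that start held 1 CAGCTG under the peak, which 15.5% of Zbtb1 windows of 200 bp hold. At *Ncor1* a Zbtb1 peak (chr11:62457154-62457524, score 54.8) had its centre 7 bp from a start site. A second Zbtb1 peak (score 26) lay in intron 13 of a RefSeq transcript, 50.8 kb from an internal start site by HOMER and 70.8 kb inside the GENCODE span, and held the pair of TGTGGT printed above, letters found in 41.3% of Zbtb1 windows. A further Zbtb1 peak with a score of 142 (chr11:62458175-62458545) overlapped the annotated 5′ end of *Ncor1* and was assigned to *Pigl*, a gene that overlaps *Ncor1* on the other strand.

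*Tbl1xr1* was the only one of the 9 genes with peaks of both factors. It had 4 Zbtb1 peaks, a number reached by 1.69% of the 4270 genes with any Zbtb1 peak, and 6 Cbfa2t3 peaks, reached by 1.34% of 3593. Such nearest-gene counts include peaks up to 340.8 kb upstream, and the spacing of genes was not taken into account. Both factors had a peak 5′ of its start site, with scores of 59.4 for Zbtb1 and 31.1 for Cbfa2t3 and centres 472 and 467 bp upstream. Both also had a peak near 84.8 kb upstream (25.9 and 39.3), where the shared stretch of 260 bases holds 1 GGAAGT on the reverse strand. These letters are present in 32.7% of Cbfa2t3 windows and 19.1% of Zbtb1 windows of 200 bp. The Zbtb1 window at this site holds 0 of them. The other Zbtb1 peaks lay in intron 1, 513 bp past the start site (24.6), and 332.8 kb upstream (18.7). The latter was annotated as a simple (CCA)n repeat and held TGGTGGT 18 times, counting overlaps, where 15.8% of Zbtb1 windows hold it at all. The other 4 Cbfa2t3 peaks lay 88.9, 140.5, 165.3 and 340.8 kb upstream, with scores of 21.7 to 30.9.

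*Tbl1x* had 1 Cbfa2t3 peak, centred 181 bp upstream of its GENCODE start and 395 bp upstream of the start HOMER used (chrX:77510643-77511021, score 25.7, below the list's median of 33.2). With peaks assigned to any gene within 10 kb of them instead, *Gps2* also had a Zbtb1 peak (18.8, nearest gene *Eif5a*) and *Hdac3* a Cbfa2t3 peak (26.1, nearest gene *Diaph1*). *Hdac1*, *Hdac2* and *Sin3b* had none under either assignment.

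**Figure D3:**
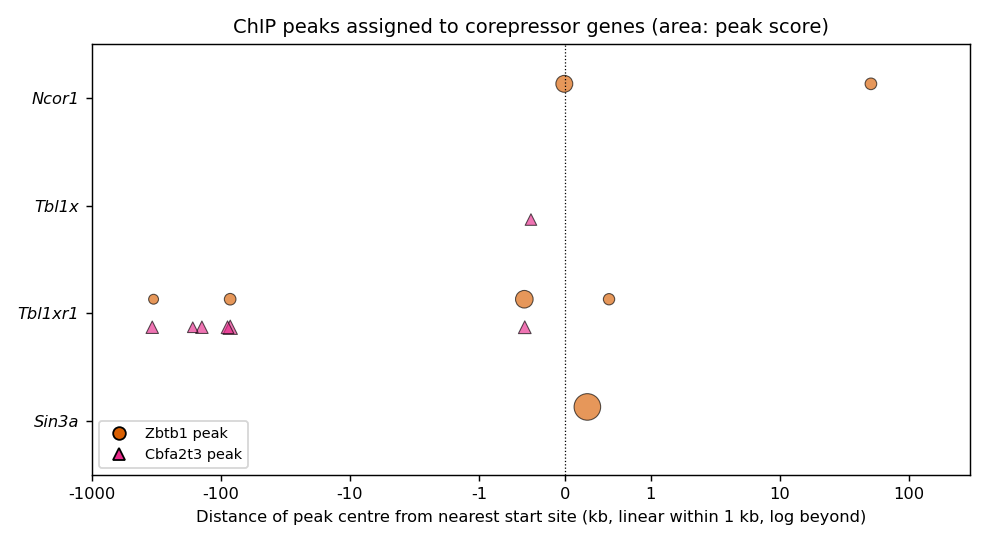
HOMER's distance of each assigned peak's centre from the nearest annotated start site in kb (linear within 1 kb, logarithmic beyond; negative is upstream) for the 4 genes with a peak, with the area of each symbol set by the HOMER peak score. Tbl1xr1 holds 10 of the 14 peaks, and the Zbtb1 peak at Sin3a has the highest score.

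Of the 9 genes, none with a peak passed the test when the bound factor was targeted. Under sgZbtb1 the log2 fold change was 0.04 for *Sin3a* (95% interval -0.26 to 0.34), -0.13 for *Ncor1* and -0.03 for *Tbl1xr1* (-0.28 to 0.22). Under sgCbfa2t3 it was -0.01 for *Tbl1xr1* (-0.26 to 0.24) and 0.18 for *Tbl1x*. These intervals stayed within 1.5-fold.

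Other genes were taken from 10 lists, 80 genes in all beside the 9, of which 73 were fitted. Most are corepressor or deacetylase genes, but 10 of the 73 encode histone acetyltransferases, which act with coactivators, and 6 encode sirtuins. Under sgLmo2 and sgCbfa2t2 0 of 73 passed with limma (0.0173% and 0.147% of all genes). Under sgCbfa2t3 the 1 that passed (0.537% of all genes) was *Cbfa2t3*, the targeted gene. Under sgZbtb1 4 of 73 passed, 1 higher and 3 lower, where 1.85% and 2.94% of all genes were higher and lower. At an unadjusted p under 0.05, 5, 10, 10 and 11 of the 73 passed in sgLmo2, sgZbtb1, sgCbfa2t2 and sgCbfa2t3, where 5.65%, 17.6%, 9.56% and 10.6% of all genes did. Of the 73, edgeR and DESeq2 each called 0, 4, 0 and 1. Of all 11554 genes edgeR called 2, 569, 17 and 58, and DESeq2 3, 509, 16 and 53. The 16 further Sin3 genes, 10 NuRD, 9 CoREST, 6 sirtuin and 10 histone acetyltransferase genes gave 0 calls in any of the 4 comparisons by limma, edgeR or DESeq2, and their medians under sgZbtb1 were -0.11, -0.06, -0.07, -0.26 and 0.05 beside -0.03 over all genes. Those of the 6 MiDAC and MIER genes, 7 other zinc-dependent deacetylases, 2 ETO family genes and 6 other corepressors were -0.13, -0.03, -0.18 and -0.15.

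*Hdac5*, a class IIa deacetylase that binds NCoR and Hdac3, fell under sgZbtb1. It read 47.0, 56.1 and 51.0 TPM in sgCont and 24.0, 32.5 and 34.9 TPM in sgZbtb1, a log2 fold change of -0.75 ± 0.19 (SE, limma adjusted p = 0.00778). The sgZbtb1 libraries lay below all other 12, and the log2 fold change in sgCbfa2t3 was -0.30 (adjusted p = 0.607 by limma), with all 3 libraries below sgCont. No Zbtb1 or Cbfa2t3 peak was assigned to the gene. *Mier1*, which recruits Hdac1 and Hdac2, read 207, 233 and 225 TPM in sgCont and 153, 183 and 168 TPM in sgZbtb1 (log2 fold change -0.40 ± 0.11, adjusted p = 0.0223). *Trim28*, the corepressor of KRAB zinc finger proteins, rose from 573, 603 and 583 TPM to 689, 655 and 770.4 TPM (0.26 ± 0.08, adjusted p = 0.0309). All 12 gene-targeting libraries lay above every sgCont library for *Trim28*, and its log2 fold changes in sgLmo2, sgCbfa2t2 and sgCbfa2t3 were 0.10, 0.17 and 0.19 (adjusted p by limma 0.930, 0.473 and 0.337). *Tle1*, a Groucho corepressor, was near the floor, with 24 reads in the 3 sgCont libraries and 1 read in the 3 of sgZbtb1. The ratio of these reads per depth was 0.0363 (exact 95% interval 0.000883 to 0.223, counting error only), and the adjusted p by limma was 0.0101. In sgCbfa2t3 *Tle1* had 5 reads, a ratio of 0.198 to sgCont (0.0590 to 0.530), with an adjusted p of 0.226 by limma, and its difference between sgZbtb1 and sgCbfa2t3 did not pass (0.827). *Mier1*, *Trim28* and *Tle1* each had 1 Zbtb1 peak within 1 kb of the start site, with scores of 73.8, 85.1 and 24. Of the 73 genes, 39 (53.4%) had a Zbtb1 peak and 25 (34.2%) a Cbfa2t3 peak, above the shares of all fitted genes, with no test made. Without the acetyltransferases and sirtuins the shares were 54.4% and 36.8% of 57 genes.

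Each of these calls was lost without some single library. That of *Hdac5* was lost without sgCont replicate 2 or sgZbtb1 replicate 1 (adjusted p = 0.0557 and 0.0882), and that of *Tle1* without sgCont replicate 3 or sgZbtb1 replicate 3 (0.0639 and 0.0504). That of *Mier1* was lost without sgCont replicate 2 or 3 or sgZbtb1 replicate 1 or 3 (0.0697 to 0.133), and that of *Trim28* without any 1 of the 6 libraries but sgZbtb1 replicate 2 (0.0591 to 0.243). The directions stayed the same, and edgeR and DESeq2 also called these 4 genes.

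**Figure D4:**
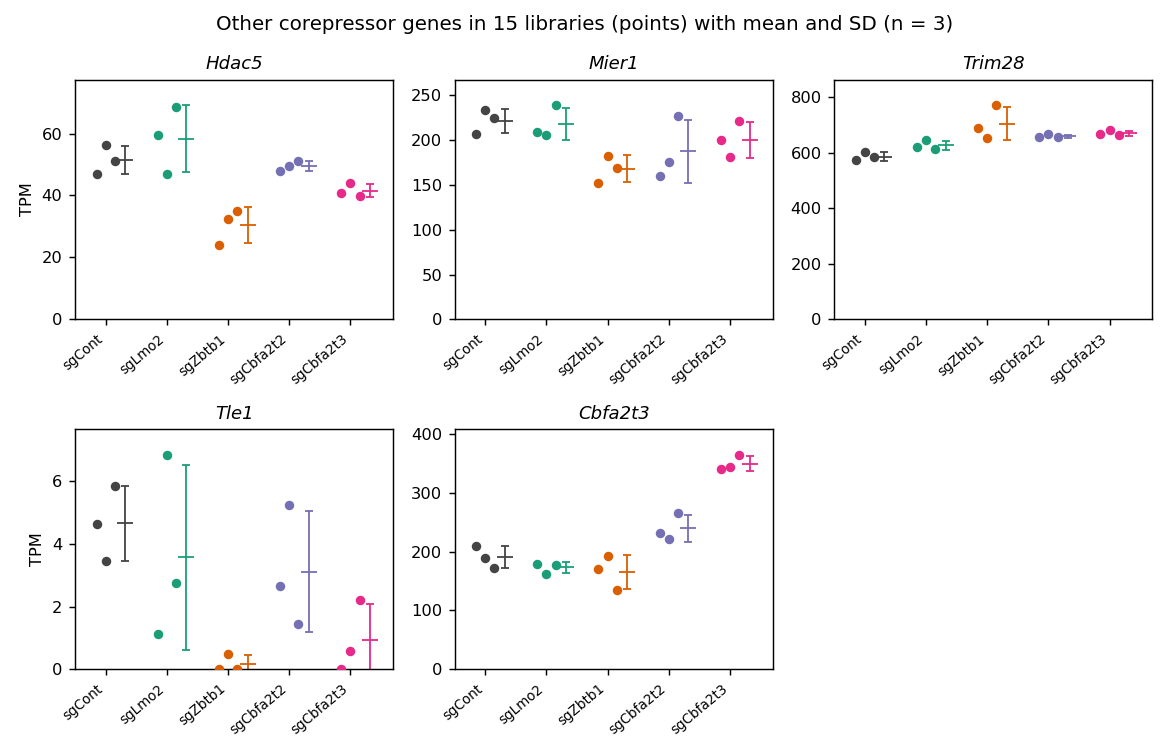
TPM (linear axis from 0) in each of the 15 libraries for the 5 genes of the wider lists that passed the test against sgCont, with the mean and SD of 3 libraries beside the points; SD bars of Tle1 that reach below 0 are cut at the axis. Hdac5 and Mier1 are lower and Trim28 higher in sgZbtb1 than in sgCont, and *Cbfa2t3* is highest in sgCbfa2t3.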

How the data were processed

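QuantSeq 3′ mRNA libraries were made from 15 cultures of sgRNA-carrying LPs. The authors processed the reads with fastp and STAR and deposited values named TPM, which are CPM: reads per gene scaled to 1 library total, with no length term. Whole reads were recovered for at least 99.98% of values (tolerance 0.05 reads). The 1 line without a gene ID was left out. The authors aligned ChIP-seq reads with Bowtie 1.1.1 to mm10 and deposited 1 HOMER peak list per factor, with a peak score and a focus ratio given as a fraction, which was not analysed.

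TPM was transformed as log2(TPM + 1). Genes with a mean above 1 TPM were fitted with limma 3.58.1 (R 4.3.3, eBayes with trend) over all 15 libraries, with Benjamini-Hochberg adjustment over all 11554 genes and a threshold of 0.05. edgeR 4.0.16 and DESeq2 1.42.0 were run on recovered reads as alternatives, with other pseudocounts, filters, scalings, controls and left-out libraries. Exact permutation tests (scipy 1.17.1) were two-sided. The fits were tested on simulated data. Motifs were counted in windows of 200 bp at peak centres.

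The 9 genes and the other lists were chosen with earlier results of these data known. Named beyond the 9 were list genes that passed against sgCont, the 3 genes most like *Hdac1* (the smallest F test p), and the targeted genes. Marker genes, genes overlapping a member and nearest genes of peaks were named as context, after their values were seen. One gene of the lists is counted but not reported here. Samples were grouped by their labels.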

Additional observations from a re-analysis of the deposited data

Results flagged for a closer look

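None of the 9 corepressor genes stood out by a difference between sgRNAs. Of the 5 genes of the wider lists that had passed against sgCont, *Cbfa2t3*, *Hdac5* and *Mier1* also passed limma over all genes between gene-targeting sgRNAs; the other list genes were not compared in this way. The log2 difference of *Cbfa2t3* was -1.01 between sgLmo2 and sgCbfa2t3 (adjusted p = 5.06e-10), -1.08 between sgZbtb1 and sgCbfa2t3 (3.70e-11) and -0.55 between sgCbfa2t2 and sgCbfa2t3 (0.0113). It was -0.47 between sgLmo2 and sgCbfa2t2 (0.0353) and -0.54 between sgZbtb1 and sgCbfa2t2 (0.00107), while between sgCbfa2t2 and sgCont it was 0.33 and did not pass (0.265). *Hdac5* was higher by 0.91 in sgLmo2 than in sgZbtb1 (0.000580), and its difference between sgZbtb1 and sgCbfa2t2 was -0.70 (0.0233), while that between sgZbtb1 and sgCbfa2t3, -0.45, did not pass (0.337). *Mier1* was higher by 0.38 in sgLmo2 than in sgZbtb1 (0.0340). Its differences between sgZbtb1 and sgCbfa2t2 (-0.15) and between sgZbtb1 and sgCbfa2t3 (-0.26) did not pass (0.650 and 0.394), nor did its F test over the 5 conditions (0.0668) or its -0.25 in sgCbfa2t2 against sgCont (0.466).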

How the results depend on the processing

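Under all 134 recounts, which include left-out libraries, 0 of 9 genes passed in any comparison, and the smallest adjusted p was 0.148 (*Hdac1*, sgCbfa2t2, DESeq2). Of 368 recomputed fold changes other than left-out libraries, 351 kept their direction. Against the 9 other gene-targeting libraries in place of sgCont the direction turned for *Ncor1* (sgLmo2 0.0294, sgCbfa2t3 0.0487), *Hdac1* (sgZbtb1 -0.16, sgCbfa2t3 -0.0250), *Hdac2* (sgCbfa2t3 -0.0146), *Hdac3* (sgLmo2 -0.0639, sgZbtb1 -0.20), *Sin3b* (sgLmo2 -0.000828), *Tbl1x* (sgLmo2 -0.12, sgCbfa2t2 -0.00577), *Tbl1xr1* (sgCbfa2t3 0.0196) and *Gps2* (sgLmo2 -0.22). It also turned under sgLmo2 with median-of-ratios scaling for *Tbl1x* (-0.00207) and *Tbl1xr1* (-0.00954), and for *Tbl1xr1* with edgeR (-0.0184; sgCbfa2t3 0.000334) and DESeq2 (-0.0247). The cause was not tested.

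With single libraries left out, 18 fold changes turned direction in 1 or more cases. Under sgLmo2 the ranges were -0.10 to 0.0575 (*Hdac2*), -0.0488 to 0.42 (*Hdac3*), -0.0849 to 0.12 (*Sin3b*), -0.0233 to 0.0835 (*Tbl1x*), -0.13 to 0.11 (*Tbl1xr1*) and -0.0549 to 0.18 (*Gps2*). Under sgZbtb1 they were -0.15 to 0.23 (*Hdac3*), -0.0156 to 0.0997 (*Sin3a*), -0.14 to 0.0643 (*Sin3b*) and -0.17 to 0.0759 (*Tbl1xr1*). Under sgCbfa2t2 they were -0.0940 to 0.0588 (*Hdac2*), -0.0727 to 0.20 (*Sin3b*) and -0.22 to 0.0283 (*Tbl1xr1*). Under sgCbfa2t3 they were -0.12 to 0.00664 (*Ncor1*), -0.0678 to 0.0849 (*Hdac2*), -0.0682 to 0.26 (*Sin3a*), -0.0402 to 0.16 (*Sin3b*) and -0.15 to 0.0917 (*Tbl1xr1*). The higher *Hdac1* in sgCbfa2t2 stayed between 0.32 and 0.42.

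With peak scores of at least 30, 1 gene had a Cbfa2t3 peak, and 1 shared peak had centres within 100 bp. The replicate numbers were not used for pairing in the main fit. Deviations from the condition means correlated weakly between same-numbered libraries, at -0.0131 to 0.113 (2 of 30 pairs above 0.1). Their mean was 0.0408, against -0.0204 for different numbers, and 13 of 15 libraries correlated best with their own number. A weak likeness by replicate number was thus present. With the replicate number as a block, 0 of 9 genes passed (smallest adjusted p 0.217). Over all genes the block called 14, 36 and 125 genes in sgLmo2, sgCbfa2t2 and the pooled comparison, in place of 2, 17 and 71. Single left-out libraries moved them by over 1.5 times too. For sgLmo2 the count was 1 without sgCont 2, sgLmo2 2 or sgLmo2 3 and 4 without sgLmo2 1. For sgZbtb1 it was 353, 330 and 306 without sgCont 2, sgCont 3 and sgZbtb1 3. For sgCbfa2t2 it was 6, 2, 2 and 26 without sgCont 2, sgCont 3, sgCbfa2t2 2 and sgCbfa2t2 3. For sgCbfa2t3 it was 26, 27 and 30 without sgCont 2, sgCont 3 and sgCbfa2t3 1. The pooled count was 44, 21, 16 and 46 without sgCont 1, 2 and 3 and sgLmo2 1, and the F count was 338 without sgZbtb1 3. Beside left-out libraries, the other settings that did so were limma without trend (0, 179, 0 and 1 in sgLmo2, sgZbtb1, sgCbfa2t2 and sgCbfa2t3, 3 pooled, 82 by F, in place of 2, 554, 17, 62, 71 and 525), no filter (330, 0, 24, 19 and 253 from sgZbtb1 on), the rule of the study on unlogged TPM (23, 171 and 44 in sgLmo2, sgZbtb1 and sgCbfa2t2), the 9 other libraries (201, 9 and 31 in sgLmo2, sgCbfa2t2 and sgCbfa2t3) and the 6 libraries alone (1 in sgLmo2). Between sgRNAs, single left-out libraries took 585 genes (sgLmo2 and sgZbtb1) to 365, 333 and 364 without sgLmo2 2, sgLmo2 3 and sgZbtb1 3, and 27 (sgLmo2 and sgCbfa2t2) to 17, 9, 13 and 17 without sgLmo2 1, 2 and 3 and sgCbfa2t2 2. They took 85 (sgLmo2 and sgCbfa2t3) to 48, 48 and 56 without sgLmo2 2, sgLmo2 3 and sgCbfa2t3 3, 262 (sgZbtb1 and sgCbfa2t2) to 131 and 170 without sgCbfa2t2 2 and sgZbtb1 2, 130 (sgZbtb1 and sgCbfa2t3) to 86 without sgZbtb1 2, and 9 (sgCbfa2t2 and sgCbfa2t3) to 1 to 5 without any 1 of the 6. In this order the counts were 190, 0, 10, 59, 46 and 1 without trend and 356, 5, 41, 140, 80 and 1 with no filter. Of the wider list, *Mier1* (adjusted p = 0.0849 and 0.199) and *Trim28* (0.0652 and 0.205) were lost with no filter and without trend, *Cbfa2t3* without trend (0.0876), and *Mier1*, *Tle1* and *Trim28* against the 9 other libraries (0.0996, 0.0893 and 0.411). Of the 9 genes, depth limits *Hdac3* most, at 26 to 71 reads per library.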
